A study of Mus musculus with 60 samples.

Results

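The comparison described here sets all 30 libraries labelled heterozygous for Trip12 (HT) against all 30 labelled wild type (WT), out of 60 libraries in the series, over every combination of treatment and sex. Each library is bulk mRNA-seq of mouse prefrontal cortex, C57BL/6J strain, collected at postnatal day 25. The animals received vehicle, fluoxetine (a serotonin reuptake inhibitor used as an antidepressant) or lithium (a mood stabiliser) through the milk of the dam from postnatal day 3 to 24. Both genotypes, all 3 treatments and both sexes were represented by 5 libraries each, giving 12 groups and 6 arms, an arm being 1 treatment in 1 sex with its 5 HT and 5 WT libraries. All genes of the table were compared as log2(normalized count + 1), and the genotype effect of a gene was the mean of its 6 HT minus WT differences, so that treatment and sex cancel within each arm. The labels number the replicates but do not say whether each came from a separate animal or litter, so p-values measure the spread between these libraries. They also do not say which change the heterozygous allele carries.

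TRIP12 is a ubiquitin ligase of the HECT family. It adds ubiquitin to substrates of the ubiquitin fusion degradation route, marks chromatin and DNA repair proteins for the proteasome, and binds subunits of chromatin-remodelling complexes. Loss of 1 copy of TRIP12 in people is a known cause of intellectual disability with autistic features. Prefrontal cortex at this age holds maturing excitatory and inhibitory neurons, oligodendrocytes that are still forming myelin, astrocytes, microglia and vessels, and bulk RNA cannot tell fewer cells of a type from less RNA per cell.

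Library totals ran from 26.6 M (mega) reads to 36.6 M in HT and from 25.1 M to 36.5 M in WT, and the mean of the 6 arm differences was 0.165 M reads (two-sided permutation test within arms, p = 0.711). Xist and 4 Y-linked genes matched the labelled sex in all 60 libraries. No 2 libraries held the same values, and the highest correlation of log2 values between any 2 was 0.991. Markers of cortical projection neurons were present in every library, with a summed level of 49618 to 70506 normalized counts in HT and 54545 to 72358 in WT. Markers of neighbouring regions varied: the summed level of 17 striatal neuron markers ranged from 9898 to 29210 in HT and from 10183 to 22845 in WT, and that of 12 olfactory bulb markers from 3682 to 26141 in HT and from 4043 to 27667 in WT.

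Trip12 itself was higher in HT, not lower. Its normalized count ran from 5489 through a median of 6272 to 6953 over the 30 HT libraries, and from 4394 through 5812 to 6362 over the 30 WT libraries. The ranges overlapped, but 28 of 30 HT libraries lay above the WT mean of their own arm, and in 2 of the 6 arms the 5 HT values lay wholly above the 5 WT values. The averaged difference was 0.11 ± 0.02 (log2 ± SE, limma adjusted p = 0.00137), an increase of 7.90%. By arm the log2 difference ran from 0.05 in fluoxetine-treated females to 0.21 in fluoxetine-treated males. The lowest WT value, 4394, belonged to 1 library of the latter arm, WT fluoxetine male replicate 2. Without that library and HT vehicle male replicate 1 the averaged difference was 0.09. With the length slope of each library as a covariate, described below, it was 0.07. A gene-level count does not show which allele a read came from, so this value does not check the genotype labels, and HT and WT below mean the libraries labelled so.

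Of 17804 genes tested, 900 (5.06%) were called at an adjusted p under 0.05 (limma, Benjamini-Hochberg over all genes tested). HT was higher for 449 of them (2.52%) and lower for 451 (2.53%). Over all tested genes, 1624 (9.12%) had the same direction in all 6 arms, 870 with HT higher in all. The genes that were both called and of 1 direction in all 6 arms, named consistent genes from here on, numbered 581 (3.26%), with 294 higher (1.65%) and 287 lower (1.61%) in HT. Another 281 called genes were opposed in 1 arm only. Because the same libraries gave the call and the arm directions, the share of called genes that were of 1 direction is a description and not a second test.

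**Figure D1:**
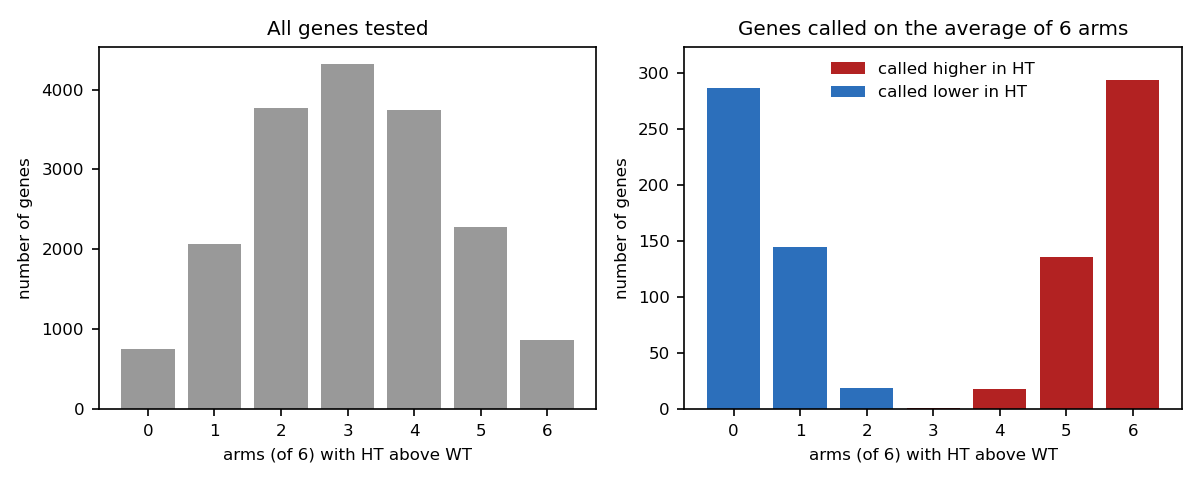
Number of genes (vertical axes) by how many of the 6 arms had HT above WT (horizontal axes), for all 17804 genes tested (left) and for the 900 genes called on the average of the 6 arms (right; red, called higher in HT; blue, called lower). Called genes gather at the ends, with 287 at 0 arms and 294 at 6 arms.

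The rule turns on the sign of each arm difference, however small. The consistent gene closest to the limit was Commd5, whose smallest arm difference was 3e-05 (log2) in size, and the called gene that just missed it was Slc25a4, with 1 arm opposed by 0.00022. The changes were small. The median consistent rise was 0.18 (log2), a 1.13-fold change, and the median consistent fall was -0.12. A change of 1.2-fold or more was reached by 86 of the 294 rises and 24 of the 287 falls, and 1.5-fold by 6 and 8. Groups seldom separated within an arm. In 190 of the 294 rises and 164 of the 287 falls no arm had its 5 HT values wholly on 1 side of its 5 WT values. Over all 17804 genes tested this held for 16118.

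Each arm alone had little power, with a median SE of 0.105 against 0.0427 for the average. Fitted alone, vehicle females gave 1 called gene (0.00562%), vehicle males 2 (0.0112%), fluoxetine females 0 (0%), fluoxetine males 14 (0.0786%), lithium females 0 (0%) and lithium males 40 (0.225%). These counts do not show that the arms differ. An F test of differences among the 6 arm effects called 0 genes (0%), with 1457 at an unadjusted p under 0.05. The male minus female difference of the genotype effect, the fluoxetine minus vehicle difference and the lithium minus vehicle difference each called 0 genes (0% each), with 616, 786 and 996 genes at an unadjusted p under 0.05. All 4 counts were also 0 with edgeR on recovered reads, which left 1442, 605, 813 and 964 genes at an unadjusted p under 0.05. Across the 17804 genes, the differences of pairs of arms, which share no library, correlated from -0.11 (lithium females with lithium males) to 0.32 (fluoxetine males with lithium females), a description over genes that are not independent replicates.

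For 7 consistent genes each of the 30 HT libraries lay on the same side of the WT mean of its arm: Alox12b, Stat6, Man2b1 and Serpina3n were higher, and Krt12, Myl4 and Gm10635 were lower. The promoters of 2 of the rises and 2 of the falls are printed to show what the most uniform members of the comparison look like at their start sites. Each runs from 250 bases before to 50 bases after a RefSeq start (GRCm38.p6), 5′ to 3′ on the strand of the gene, with capitals on any match to 1 of 7 motifs searched for. The GC box was searched as the letters GGGCGG. For the promoter element named after its own letters the search used CCAAT exactly. The E box of clock and Myc-type factors was taken in its form CACGTG. For the cAMP response element the full palindrome TGACGTCA was required. The TATA box was searched as TATAAA. A STAT site was searched with a spacer of 3 unspecified letters, TTCNNNGAA, and likewise with a spacer of 4. Matches were taken on either strand.
Alox12b, chr11:69156822-69157121, plus strand: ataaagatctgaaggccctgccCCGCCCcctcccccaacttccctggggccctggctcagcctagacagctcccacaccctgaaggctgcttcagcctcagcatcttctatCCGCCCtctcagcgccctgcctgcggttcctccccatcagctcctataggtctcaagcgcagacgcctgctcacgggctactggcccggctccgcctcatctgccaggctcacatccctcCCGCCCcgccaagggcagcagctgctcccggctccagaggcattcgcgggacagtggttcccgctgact
Stat6, chr10:127642736-127643035, plus strand: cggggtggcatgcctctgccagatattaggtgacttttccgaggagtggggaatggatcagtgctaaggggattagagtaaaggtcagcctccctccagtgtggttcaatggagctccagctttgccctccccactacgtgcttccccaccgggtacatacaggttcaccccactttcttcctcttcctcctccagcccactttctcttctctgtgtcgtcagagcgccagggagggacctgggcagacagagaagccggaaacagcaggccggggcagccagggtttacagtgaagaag
Krt12, chr11:99422210-99422509, minus strand: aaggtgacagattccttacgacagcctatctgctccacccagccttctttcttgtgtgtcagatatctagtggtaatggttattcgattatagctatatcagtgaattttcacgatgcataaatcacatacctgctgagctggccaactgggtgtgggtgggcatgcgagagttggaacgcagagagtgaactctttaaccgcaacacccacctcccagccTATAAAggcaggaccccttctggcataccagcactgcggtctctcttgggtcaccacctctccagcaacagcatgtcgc
Myl4, chr11:104550413-104550712, plus strand: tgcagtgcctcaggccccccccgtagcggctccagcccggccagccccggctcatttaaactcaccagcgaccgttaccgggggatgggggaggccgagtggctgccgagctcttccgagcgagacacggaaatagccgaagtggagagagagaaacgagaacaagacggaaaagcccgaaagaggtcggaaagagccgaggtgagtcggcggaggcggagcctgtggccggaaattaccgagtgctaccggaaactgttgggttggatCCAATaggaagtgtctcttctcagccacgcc
The Alox12b promoter held 3 GC boxes, that of Krt12 a TATA box and that of Myl4 a CCAAT box after the start, while that of Stat6 held none of the motifs. The 4 promoters held 15, 8, 8 and 25 CpG dinucleotides. Among 12622 tested genes with a RefSeq promoter, a GC box was present in 61.2%, against 55.9% of 222 consistent rises and 60.1% of 218 consistent falls. The CCAAT box was present in 38.4%, 40.5% and 45.9% of the same 3 sets, and the STAT site with a 3-base spacer in 6.67%, 7.21% and 5.96%. The median promoter held 20 CpG dinucleotides over all genes, 16.5 in the rises and 20 in the falls. These shares describe letters in a window and were not tested.

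Alox12b encodes a lipoxygenase known from the skin barrier. Its counts ran from 57.9 through a median of 83.8 to 238 in HT and from 37.2 through 58.3 to 84.5 in WT. The HT groups were higher in every arm and free of overlap with WT in 2, although the pooled ranges overlapped. The difference was 0.61 ± 0.08 (log2, SE; limma adjusted p = 6.34e-07), and the arms ran from 0.48 to 0.77. One library, HT fluoxetine male replicate 4, gave the value of 238, far above the 74.6 to 100 of the other 4 of its group.

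Stat6, the transcription factor that answers interleukin 4, ran from 311 through 349 to 387 in HT and from 262 through 308 to 345 in WT. Its 5 HT values lay above all 5 WT values in 4 of the 6 arms, the highest number of such arms reached by any of the 294 rises. The difference was 0.20 ± 0.03 (adjusted p = 1.46e-06), with arms from 0.14 to 0.28. Stat4, another member of that family, was higher by 0.33 ± 0.06 (adjusted p = 0.000784). The Stat6 locus overlaps Nab2 on the opposite strand, and whether reads were assigned by strand is not given in the sources used here.

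Other rises of the smallest p covered secreted, lysosomal and signalling proteins. Ctss, a lysosomal protease made by microglia, ran from 1239 through 1600 to 2140 in HT and from 1077 through 1348 to 1602 in WT, and rose by 0.28 ± 0.04 (adjusted p = 8.92e-06). Man2b1, a lysosomal mannosidase, rose by 0.17 ± 0.02 (adjusted p = 2.74e-06), with medians of 1449 in HT and 1300 in WT. Serpina3n, a protease inhibitor typical of reactive astrocytes, rose by 0.32 ± 0.04 (adjusted p = 3.17e-06), with medians of 261 and 214. For these genes the HT values were higher in all 6 arms, while pooled ranges overlapped. Wfs1, a membrane protein of the endoplasmic reticulum, rose by 0.29 ± 0.04, and its 5 HT values lay above the 5 WT values in 3 arms. Cyp11a1, the first enzyme of steroid synthesis, rose by 0.36 ± 0.05, but the annotation of the locus overlaps Gm17322 on the same strand, which rose by 0.27. Vill, a villin-like actin-binding protein, rose by 0.34 ± 0.04. Rgs8, a brake on G protein signalling, rose by 0.17 ± 0.03, Spint2, a protease inhibitor, by 0.27 ± 0.04, Col9a3, a collagen chain, by 0.22 ± 0.04, and CT486005.1, a long noncoding RNA, by 0.36 ± 0.06. Their arm differences reached down to 0.02 for Rgs8 in lithium males and 0.01 for Spint2 in fluoxetine males. Where the mean over libraries was 50 normalized counts or more, the biggest rises also held Rspo1 (0.37 ± 0.07), a secreted activator of Wnt signalling, and Dnah7c (0.36 ± 0.07), an axonemal dynein.

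Krt12, a keratin, ran from 167 through 214 to 266 in HT and from 194 through 267 to 344 in WT. In 4 of the 6 arms its 5 HT values lay wholly below the 5 WT values. The difference was -0.30 ± 0.04 (adjusted p = 4.61e-07), from -0.42 in lithium males to -0.17 in vehicle males. It overlaps A830036E02Rik on the opposite strand.

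Myl4, the myosin light chain of embryonic muscle and atrium, ran from 607 through 895 to 1123 in HT and from 921 through 1087 to 1442 in WT. The difference was -0.31 ± 0.04 (adjusted p = 6.34e-07), without overlap in 3 arms.

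The smallest p of all belonged to 6330403K07Rik, a gene named here after its values were seen, since names of this kind were otherwise only counted (52 of the 581 consistent genes). Its counts ran from 3478 through 4041 to 4433 in HT and from 3898 through 4517 to 5057 in WT, with no overlap in 4 arms. The difference was -0.16 ± 0.02 (adjusted p = 1.55e-08).

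Falls of the smallest p were modest in size. Changes given as rises or falls are on the log2 scale. Prelid3b, a lipid transfer protein of mitochondria, fell by 0.16 (adjusted p = 4.38e-07), from a WT median of 1129 to an HT median of 1024. Tra2b, a splicing factor, fell by 0.19, and its 5 HT values lay below the 5 WT values in 4 arms. Npnt, an extracellular ligand of integrins, fell by 0.25, and Socs2, the feedback inhibitor of growth hormone signalling, by 0.21. In vehicle females Socs2 differed by -0.42 against -0.11 in lithium males, but the 6 arm effects did not differ by the F test (unadjusted p = 0.0723, adjusted p = 0.636). Pou6f1, a neuronal transcription factor, fell by 0.13, Rit2, a neuronal GTPase, by 0.18, and Uros, an enzyme of haem synthesis, by 0.14. Ddx25, an RNA helicase, fell by 0.11, Mtfp1, which acts in mitochondrial fission, by 0.12, and Nap1l4, a histone chaperone, by 0.10. The largest falls also included Ighm, the immunoglobulin heavy chain of B cells, which differed by -0.42 ± 0.08, and Slc38a5, a glutamine transporter, with -0.33 ± 0.09.

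**Figure D2:**
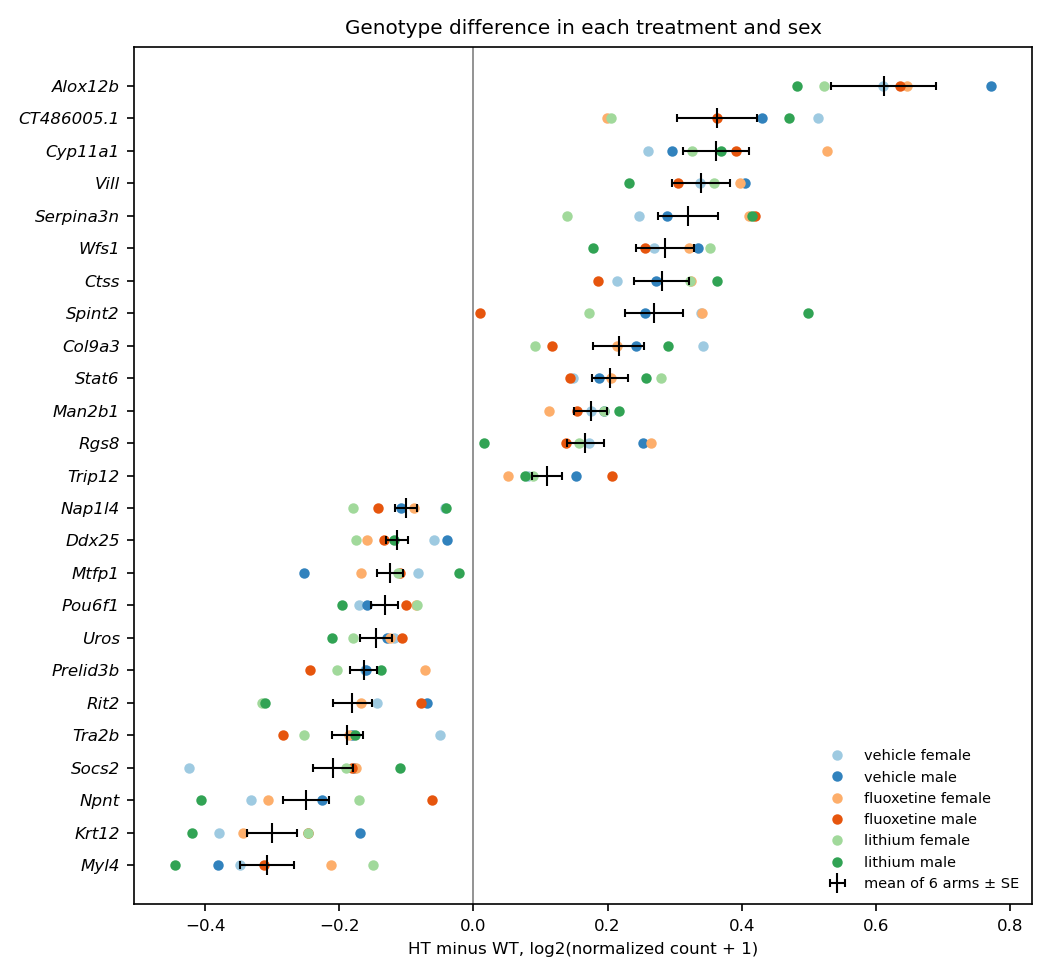
HT minus WT on the log2(normalized count + 1) scale (horizontal axis) for the 12 rises and 12 falls of the smallest p and for Trip12. Coloured points are the 6 arms and the black mark is their mean ± SE; every point of a gene lies on 1 side of 0, with Spint2 in fluoxetine males the nearest to it at 0.01.

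**Figure D3:**
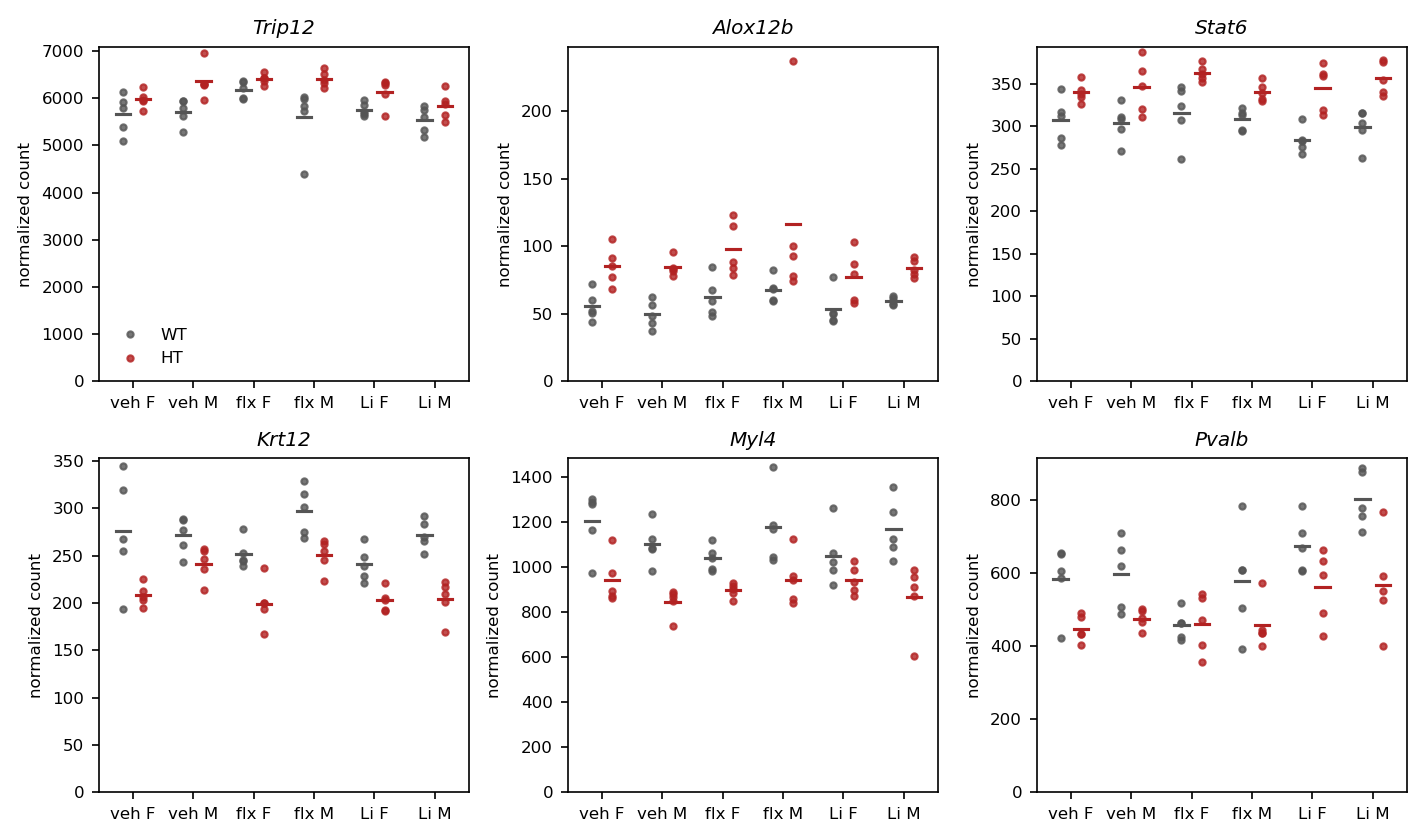
Normalized counts (vertical axes, from 0) of 6 genes in all 60 libraries, by treatment and sex (veh, vehicle; flx, fluoxetine; Li, lithium; F, female; M, male). Each point is 1 library, grey for WT and red for HT, and bars are the means of 5; red bars lie above grey ones for Trip12, Alox12b and Stat6 and below them for Krt12 and Myl4 in all 6 arms, and for Pvalb in fluoxetine-treated females the means nearly coincide.

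Consistent genes lay on all autosomes and the X chromosome, from 1.58% of the tested genes of chromosome 14 to 4.23% of those of chromosome 11. On chromosome 11, 6 consistent genes lie close together and in 2 directions: Aloxe3 (69125896 to 69149115) and Alox12b (69156989 to 69169792), both lipoxygenases, were higher by 0.28 and 0.61, while Trappc1, Kcnab3, Rnf227 and Chd3 (69323980 to 69369406) differed by -0.10, -0.22, -0.11 and -0.10. Chd3 is a chromatin remodeller of the NuRD complex. Over the genome, 26 of 17771 adjacent pairs of tested genes were both consistent, and in 21 of these 26 the direction was the same. In 2 of the 26 pairs the annotations overlap. Rtl8a and Rtl8b, near-identical neighbours on chromosome X, fell by 0.17 and 0.15, and reads may be split between them.

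Around Trip12 itself (chromosome 1, 84721189 to 84840516, minus strand), 158 other tested genes lay within 10 Mb, and 8 of them (5.06%) were called, 3 higher and 5 lower. Within 5 Mb it was 1 of 62, Rhbdd1, with a difference of -0.13 ± 0.04. Between 40 and 200 Mb away on the same chromosome the share was 5.14%. The consistent genes in the window were Ppp1r7 (-0.07 ± 0.02), a regulator of protein phosphatase, Bok (-0.15 ± 0.04), a member of the Bcl2 family, Cops9 (-0.15 ± 0.04), the smallest COP9 signalosome subunit, and Resp18 (0.16 ± 0.05). Rhbdd1, BC035947 (0.62 ± 0.17), Per2 (0.14 ± 0.04), a clock gene, and Hes6 (-0.11 ± 0.04) were called without being of 1 direction. Calls on Resp18, Per2 and Hes6 were lost in 3, 11 and 36 of the 60 fits that each left out 1 library; the highest adjusted p were 0.0539 without WT vehicle male replicate 5, 0.0547 without WT fluoxetine male replicate 2 and 0.0678 without WT lithium male replicate 5.

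The counts of called genes in lists tied to the biochemistry of TRIP12 stand beside 5.06% called over all genes, and nothing particular to these lists is read from them. Of 18 tested partners and substrates none was called, the median difference was 0.0007 against 0.0024 over all genes, and 9 of 18 were higher. Among 26 other HECT ligases only Wwp2 was called (-0.07 ± 0.02), and it was not of 1 direction. The Wwp2 call was lost with the marker scores as covariates (adjusted p = 0.0538), with a replicate block within arm (0.0728) and in 4 of the 6 fits that each left out 1 arm (up to 0.21). Among genes of ubiquitin, its activation and the fusion degradation route, Ubr2, a recognition ligase of the N-degron route, was higher by 0.07. It was not of 1 direction. The call on Ubr2 was lost in 6 of 60 fits without 1 library (highest adjusted p = 0.0537, without HT lithium male replicate 1). Of 36 proteasome subunits 29 had a difference below 0 and 1, Psma2 (-0.11 ± 0.03), was called but not of 1 direction. None of 18 genes of the ubiquitin response to DNA damage was called, and 16 of them had a difference above 0.

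Small conjugation systems other than ubiquitin appeared among the falls. Of 40 genes of the SUMO, NEDD8 and UFM1 systems and the COP9 signalosome, 10 were lower, 9 of them consistently, and none was higher (background 2.53% lower, 2.52% higher). The list was written after the values were seen and includes genes because they moved, so its counts are a description only. Nedd8, the modifier that activates cullin ligases, ran from 1233 through 1648 to 1944 in HT and from 1530 through 1765 to 2367 in WT and fell by 0.13 (adjusted p = 0.0049). Sumo3 fell by 0.08, Sae1, a subunit of the SUMO-activating enzyme, by 0.07, Rbx1, the RING subunit of cullin ligases, by 0.09, Cops4 by 0.07 and Ufc1, the conjugating enzyme for UFM1, by 0.09. Spop, an adaptor of a cullin ligase, fell by 0.09. With the length slope of each library as a covariate, described below, 6 genes of the list were called lower, and 4 with a replicate block within arm.

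The same background of 5.06% applies to lists of chromatin and developmental regulators. None of 35 autism-linked regulators of chromatin and transcription was called, and 25 of 35 were above 0. Gene length, described further below, differs between such lists. Of 27 subunits of the BAF remodelling complex only Dpf2 was called (0.07 ± 0.02), and it was not of 1 direction. Its call was lost in 10 of 60 fits without 1 library (highest adjusted p = 0.054, without WT lithium female replicate 3). Of 19 p53 target genes Aen (-0.09 ± 0.03) and Pmaip1 (-0.29 ± 0.08), both linked to cell death, were called lower, 1 of them consistently. Their calls were lost in 4 and 5 of the 60 fits (highest adjusted p = 0.0532 without WT lithium male replicate 5 and 0.0556 without HT fluoxetine male replicate 2). Of 30 genes of Wnt and beta-catenin signalling only Wif1, a secreted Wnt inhibitor, was called (-0.27 ± 0.08), and it was not of 1 direction. The call on Wif1 was lost in 36 of the 60 fits (highest adjusted p = 0.0667, without HT lithium female replicate 3).

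Part of the genes of activated microglia and macrophages were higher in HT. Of 34 tested genes in a list of activation genes, written after the values were seen, 25 were above 0, with a median of 0.09. Of the 34, 11 were called higher, 9 of them consistently, and none lower, against 2.52% called higher over all genes. The list was written with the values known, so these counts are a description only. By arm the list median ran from -0.04 in fluoxetine males to 0.25 in lithium males. None of 7 general microglial markers was called, their median was -0.03, and their summed level ran from 6869 to 11532 normalized counts in HT and from 7235 to 10002 in WT. The rises included Ctss, described above, and Lyz2, lysozyme, with medians of 161 in HT and 134 in WT (0.27 ± 0.07, adjusted p = 0.0112). Lag3, a checkpoint receptor that microglia also express, ran from 139 through 208 to 307 in HT and from 142 through 170 to 233 in WT (0.26 ± 0.06, adjusted p = 0.00358). Low-abundance members moved the most: Il1a, an alarm cytokine, had medians of 20.6 and 13.5 (0.55 ± 0.11), Gpr84, a receptor for fatty acids, 21.6 and 16.1 (0.43 ± 0.09), and Itgax, an integrin of activated microglia, 12.3 and 9.70 (0.50 ± 0.12). Fcgr3, an Fc receptor, rose by 0.19 ± 0.05 and Mpeg1, a pore-forming protein of macrophages, by 0.15 ± 0.04. The count of 11 became 12 with the length slope covariate, 11 with the striatal and olfactory marker scores as covariates and 10 with a replicate block within arm.

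Of 24 interferon-induced and antigen presentation genes 21 were above 0, the median was 0.14, and 3 were called higher with none lower, against 2.52% called higher over all genes. Ifit1, an inhibitor of viral translation, ran from 48.9 through 70.7 to 108 in HT and from 34.3 through 56.5 to 88.2 in WT (0.31 ± 0.08, adjusted p = 0.00864). Oasl2, an antiviral protein, differed by 0.24 ± 0.06, and both were of 1 direction. Irf7, the factor that amplifies the response, differed by 0.31 ± 0.08 on average but ran from -0.11 in vehicle females to 0.80 in lithium males; the arms did not differ after adjustment (F test, unadjusted p = 0.00915, adjusted p = 0.522). In lithium males the median of the list was 0.38 and in fluoxetine males -0.01.

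Genes of cell division were among the rises. Of 45 genes of S phase and mitosis, again listed after the values were seen and partly because they moved, 39 were above 0, 13 were called higher and 2 lower, and the median was 0.17; over all genes 2.52% were called higher and 2.53% lower. By arm the median ran from 0.01 in fluoxetine males to 0.28 in vehicle males and lithium females. Mki67, the standard marker of cycling cells, ran from 64.9 through 121 to 237 in HT and from 49.4 through 86.2 to 198 in WT (0.37 ± 0.10, adjusted p = 0.0224), with 1 arm, at -0.00, not above 0. E2f2, an activator of S phase genes, had medians of 44.2 and 28.2 (0.55 ± 0.12, adjusted p = 0.003), Cenpf, a kinetochore protein, 50.5 and 40.8 (0.41 ± 0.10), and Nusap1, a spindle protein, 29.7 and 21.7 (0.44 ± 0.11). E2f1, called but opposed in lithium males, differed by 0.15 ± 0.04, and Kif23, a kinesin of cell separation, rose by 0.24 ± 0.06. Ccnd2, cyclin D2 of neural progenitors, rose by 0.18 ± 0.03 (adjusted p = 0.000338). Oligodendrocyte precursors had all 5 of their markers above 0 and 1 called, Gpr17 (0.12 ± 0.04). The Gpr17 call was lost in 37 of 60 fits without 1 library (highest adjusted p = 0.0743, without HT lithium male replicate 2). By arm the median of the precursor markers was -0.06 in vehicle males and -0.03 in fluoxetine females. In the other arms it ran from 0.10 to 0.15. All 10 markers of mature oligodendrocytes were above 0 with a median of 0.17, and none was called. With the marker scores as covariates 9 genes of the division list were called higher, and 9 with a replicate block within arm.

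Several genes of parvalbumin interneurons, the fast-spiking inhibitory cells of cortex, were lower. Pvalb ran from 357 through 478 to 767 in HT and from 392 through 610 to 888 in WT, and 26 of 30 HT libraries lay below the WT mean of their arm. The difference was -0.30 ± 0.06 (adjusted p = 0.000783), from -0.53 in lithium males to -0.00 in fluoxetine females, where the group means were 462 in HT and 457 in WT. In no arm were the 5 HT values free of overlap with the 5 WT values. Of 8 interneuron markers in the list Pvalb was the 1 called. Of 25 genes enriched in parvalbumin basket cells, listed after the values were seen, 6 were called lower and none higher. Over all genes 2.53% were called lower, and because of how the list was made its counts are a description only. The list median was -0.03, and 7 of the 25 were above 0. Kcng4, a potassium channel subunit that marks these cells, differed by -0.32 ± 0.08, Kcnab3, a potassium channel beta subunit, by -0.22 ± 0.06 and Nefh, the heavy neurofilament chain, by -0.18 ± 0.06. Nefh lost its call in 10 of 60 fits without 1 library (highest adjusted p = 0.0577, without WT fluoxetine male replicate 2), and without that library and HT vehicle male replicate 1 together 3 genes of the list were called lower, as with a replicate block within arm; with the length slope covariate it was 4. None of 19 genes of GABA receptors and the inhibitory synapse was called.

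Of 10 markers of cortical projection neurons 6 were above 0, and the list median was 0.00506. Over all genes 5.06% were called, the background for the counts of this paragraph. The 2 called members were below 0: Emx1, the dorsal forebrain factor, differed by -0.20 ± 0.05 (adjusted p = 0.0206) and Slc17a7, the vesicular glutamate transporter, had a difference of -0.10 ± 0.03. The call on Slc17a7 was lost in 31 of 60 fits (highest adjusted p = 0.0691, without HT lithium female replicate 4). Of 34 postsynaptic density genes 26 were above 0, and Shank2, a scaffold protein linked to autism, was called (0.11 ± 0.03) but not of 1 direction. Htr2a, a serotonin receptor of cortical pyramidal cells, differed by -0.12 ± 0.03, Grm2, a metabotropic glutamate receptor, by -0.19 ± 0.05, and Cacna1g, a calcium channel, by -0.14 ± 0.03. Cbln4, a synapse organiser, differed by -0.32 ± 0.09, and its call was lost without HT lithium male replicate 2 (adjusted p = 0.0519). Cry2, a clock gene, rose by 0.17 ± 0.03.

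Among 27 immediate early genes, which report recent neuronal activity, 26 were above 0 with a median of 0.13. Egr4 (0.25 ± 0.08) and Gadd45b (0.19 ± 0.06) were called, 1 of them consistently, against 2.52% called higher over all genes. Their calls were lost in 22 and 32 of the 60 fits that each left out 1 library. The highest adjusted p were 0.0603 without WT vehicle female replicate 3 and 0.0649 without HT fluoxetine male replicate 1. Over those fits the difference ran from 0.22 to 0.27 for Egr4 and from 0.17 to 0.22 for Gadd45b. The list median was -0.08 in vehicle males and 0.26 in fluoxetine males.

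**Figure D4:**
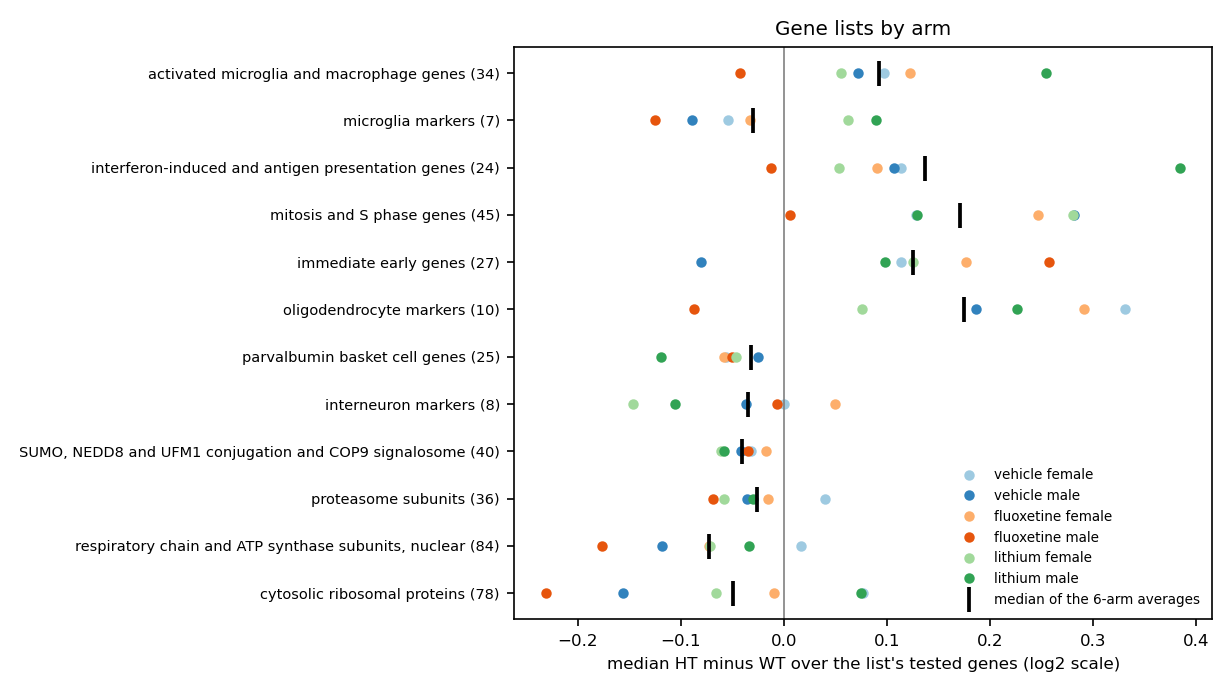
Median HT minus WT difference (horizontal axis, log2 scale) over the tested genes of 12 lists, with the number of genes in brackets. Coloured points are the 6 arms and black bars the medians of the 6-arm averages; the interferon list reaches 0.38 in lithium males, and the respiratory chain list lies below 0 in all arms but vehicle females.

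Rises and falls differed in gene length. The median exon length was 5080 bases for the consistent rises and 3159 bases for the consistent falls, against 4038 bases for all tested genes. Genes averaging 100 or more normalized counts were split into quartiles of length. In the quartile of the shortest, 33 genes rose consistently and 119 fell; in the quartile of the longest, 70 rose and 28 fell. The length slope of a library, the regression of its centred log2 values on log2 exon length, was higher in HT by 0.0186 log2 units per doubling of length (mean of 6 arms; two-sided permutation test within arms, p = 0.0293), and by 0.0119 without WT fluoxetine male replicate 2. By arm it ran from -0.00523 in vehicle females to 0.0596 in fluoxetine males. With the slope as a covariate, chosen after seeing the data, 957 genes were called, and 419 of the 581 consistent genes were among them, 234 rises and 185 falls. Genes named here that lost their call with it were Aen, Bok, Cops9, Emx1, Hes6, Nefh, Per2, Pmvk, Psma2, Shank2, Slc17a7, Slc38a5, Socs7, Trappc1, Ubr2 and Ufc1, with adjusted p from 0.0534 (Slc38a5) to 0.147 (Slc17a7). What set the length slope of a library was not tested. Median exon length was 14273 bases for the autism-linked regulators, 9485.5 for the postsynaptic density and 7035 for the DNA damage list. Most genes of these lists were above 0. Proteasome subunits, at 2886 bases, were mostly below 0. Immediate early genes, at 3276 bases, had 26 of 27 above 0, and the inhibitory synapse list, at 6686, had 6 of 19. How far length went with the direction of a list was not tested.

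**Figure D5:**
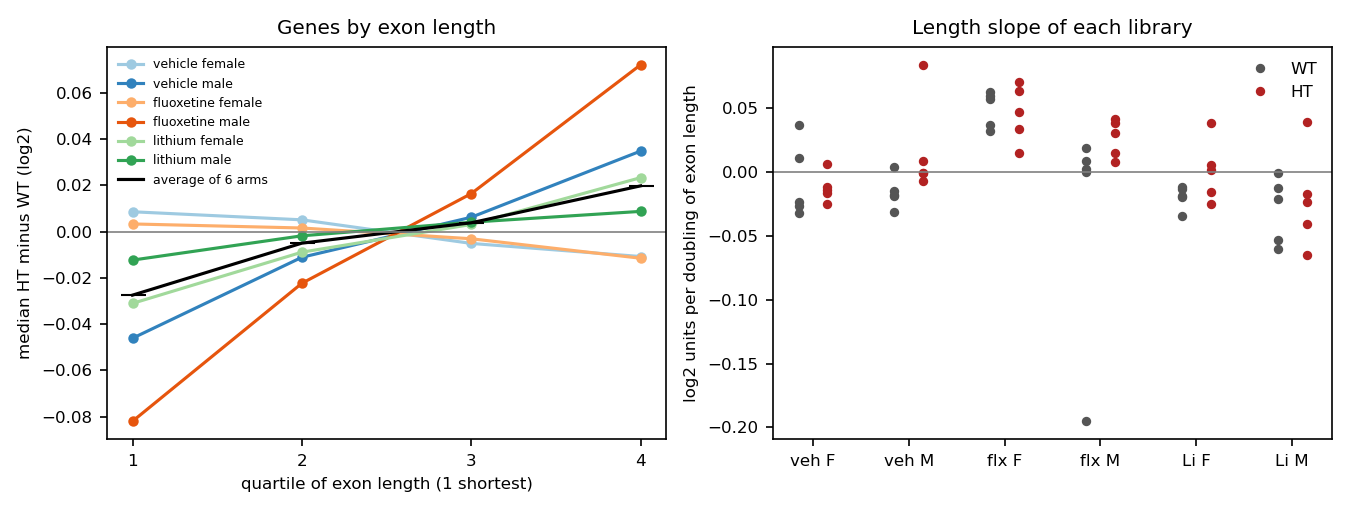
Left, median HT minus WT difference (log2) in quartiles of exon length, in each arm and for their average; right, the length slope of each of the 60 libraries in log2 units per doubling of exon length. The fluoxetine male arm has the steepest line, and WT fluoxetine male replicate 2 lies at -0.195, below all other libraries.

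Genes of mitochondria and ribosomes are mostly short. Of 84 nuclear genes of the respiratory chain and ATP synthase, chosen by symbol after the values were seen, 81 were below 0 and 19 were called lower, 8 of them consistently, with a median of -0.07 and a median exon length of 1578 bases. With the length slope as a covariate 2 genes of the list were called lower, with the marker scores 32, with a replicate block within arm 6, and without WT fluoxetine male replicate 2 and HT vehicle male replicate 1 it was 9. Of 78 cytosolic ribosomal protein genes 4 were called lower, and 1 with the covariate. Over all genes 2.53% were called lower, the background for both lists. The 13 mitochondrially encoded genes had a median of -0.08, with none called. Park7, a redox chaperone, Tmsb10, an actin-binding peptide, and Lgals1, a galectin, are short genes that fell by 0.13, 0.14 and 0.23, and all 3 kept their calls with the covariate.

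The remaining lists held few calls, and their counts stand beside 5.06% called over all genes. In 15 of the 30 lists no gene was called, among them astrocytes, endothelial and mural cells, meninges, blood, glucocorticoid-induced genes and thyroid hormone targets. All 17 striatal markers were above 0 with a median of 0.22. Serpina9 alone was called (0.92 ± 0.23) but not of 1 direction, at 13.6 normalized counts in the median HT library and 8.80 in WT. All 12 olfactory bulb markers were below 0 with a median of -0.61, and none was called. The striatal medians were not of 1 sign over arms, at 1.203 in vehicle males and -0.19 in fluoxetine males. Nor were the olfactory medians, which ran from -2.02 in lithium females to 0.71 in lithium males. Among genes of cholesterol synthesis, Pmvk, a kinase of the mevalonate route, differed by -0.12 ± 0.03. In the list of growth hormone and STAT5 response genes Socs2 fell. Socs7 was called higher (0.08 ± 0.02) but not of 1 direction, with its call lost in 15 of 60 fits (highest adjusted p = 0.0574, without WT fluoxetine male replicate 2).

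Other settings also ended calls on genes named here. A replicate block within arm ended 21, those on Aen, BC035947, Cbln4, Cops4, Cops9, E2f1, Gadd45b, Gpr17, Hes6, Nefh, Per2, Pmaip1, Psma2, Sae1, Shank2, Slc17a7, Socs7, Ubr2, Ufc1, Wif1 and Wwp2, with adjusted p from 0.0523 (Nefh) to 0.109 (Hes6). The marker scores as covariates ended those on Egr4, Gpr17, Hes6, Per2, Resp18, Wif1 and Wwp2 (adjusted p from 0.0504 for Per2 to 0.124 for Wif1). Without WT fluoxetine male replicate 2 and HT vehicle male replicate 1, those on Aen, Hes6, Nefh, Pmvk, Slc17a7 and Socs7 were lost. Leaving out at least 1 whole arm ended the call on 50 of the 99 genes chosen, in fits with fewer libraries.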

How the data were processed

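Bulk RNA-seq was deposited as 1 table of 18088 genes by 60 libraries. The authors used Salmon 0.11.2, R 3.6.0 and DESeq2 1.19.11 with build GRCm38, per the submitters' processing notes; the annotation, strand setting and gene filter are not given in the sources used here. The deposited values are a signal, gene-level counts divided by 1 size factor per library. Each column is made of whole multiples of 1 step, so reads were recovered, 100% of values being whole within 0.01, with size factors of 0.85 to 1.247 and totals of 25.1 to 36.6 M (mega) reads.

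Values were taken as log2(value + 1), keeping genes with at least 10 in at least 5 libraries (284 removed). limma 3.58.1 (limma-trend, R 4.3.3) fitted 12 group means with 48 residual degrees of freedom, and Benjamini-Hochberg adjustment ran over all 17804 genes. Every adjusted p in the text without another tool named is from this fit. Alternatives included edgeR 4.0.16 and DESeq2 1.42.0 on recovered reads. The script was tested on simulated data. Intervals and SE values reflect the spread between libraries.

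Genes were named by a rule: Trip12, the 12 smallest p and 5 largest changes in each direction among consistent genes with a mean of at least 50, up to 4 called genes per list, and called genes within 10 Mb of Trip12; some genes the rule chose are not reported here. Another 38 genes and 9 lists were chosen after their values were seen. The members and lists were chosen with earlier results of these data known. Gene names matched 18077 of 18088 identifiers. Promoters are from RefSeq, and 440 of 581 consistent genes had one.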

Additional observations from a re-analysis of the deposited data

Results flagged for a closer look

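In 144 groups of 5 libraries, over 12 measures, 12 values stood far from the other 4 of their group; chance alone gives about 1 group in 20. The length slope was 0.0837 in HT vehicle male replicate 1, where the others ran from -0.0069 to 0.0087, and -0.195 in WT fluoxetine male replicate 2. The striatal marker score was 0.867 in HT fluoxetine male replicate 4, 0.142 in HT lithium male replicate 2 and 1.203 in WT fluoxetine female replicate 3. Trip12 was at 4394 normalized counts in WT fluoxetine male replicate 2, against 5726 to 6029 in the others. Alox12b was at 238 in HT fluoxetine male replicate 4 and at 77.1 in WT lithium female replicate 5. Man2b1 was at 1676 in HT fluoxetine male replicate 2, and Serpina3n at 302 in WT lithium male replicate 2. Myl4 was at 739 in HT vehicle male replicate 1, and Pvalb at 574 in HT fluoxetine male replicate 1.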

How the results depend on the processing

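The count of 900 called genes (449 higher, 451 lower, 581 of 1 direction) moved by over 1.5 times under these settings. Library weights gave 1379 (724 higher), with 2 genes differing among arms and 5 between fluoxetine and vehicle. Striatal and olfactory marker scores as covariates gave 1601 (685 higher, 916 lower, 979 of 1 direction). Leaving out an arm gave 457 without vehicle males (228 higher, 229 lower, 359 of 1 direction), 553 without fluoxetine females (263 higher, 290 lower), 475 without fluoxetine males (251 higher, 224 lower), 434 without lithium females (198 higher, 236 lower, 355 of 1 direction), and 299 lower without lithium males; fewer libraries enter these fits. Without WT fluoxetine male replicate 2 and HT vehicle male replicate 1, 1 gene differed between fluoxetine and vehicle. The causes were otherwise not tested. With a replicate block across arms 900 genes were called, and with a replicate block within arm 534 (275 higher, 259 lower, 387 of 1 direction). Same-numbered HT and WT libraries of an arm correlated from -0.24 to 0.25 in their deviations from group means. Differently numbered libraries were not compared, so whether the numbers pair the samples was not tested. Leaving out 1 library gave 750 to 1022 called genes, 492 to 653 of 1 direction. edgeR called 930 and DESeq2 1113. No named gene changed direction under any setting run. Of 61 genes chosen by rule, 29 were called under all settings and 47 without each single library.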
